A study of Homo sapiens with 24 samples.

Results

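The genes described here carry no junction probe set on the Affymetrix Human Transcriptome Array 2.0, an array with probe sets for single exon regions and for exon junctions. They were taken from the probe-set table as symbols with at least 3 exon probe sets and no junction probe set, where a probe set had exactly 1 symbol. Of 18614 genes with at least 3 exon probe sets, 374 had no junction probe set, and 31 of these had a mean exon level over 6 (log2) on each of 9 arrays. The other 343 did not pass, and 333 of them were over 6 on none of the 9 arrays. The level was therefore used to choose the 31 genes, and their levels are given as a description. Because every one of the 9 arrays had to be over 6, a gene that isoginkgetin took below 6 could not be among them. Just inside the threshold were WDR5B, FANCF and BHLHE23, with a lowest level of 6.04, 6.07 and 6.26, and just outside it were LINC00273, SLC25A52 and HIST1H2BE at 5.94, 5.91 and 5.81.

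The study exposed cells for 8 h to 30 µM isoginkgetin, a biflavonoid from plants that is known to inhibit the splicing of pre-mRNA, to the vehicle DMSO, or to no addition. The cells were a subline of HCT116 that is null for p53, and HCT116 itself, a human colorectal carcinoma line. Each of the 6 groups of line and treatment held 2 arrays from independent experiments. The 3 arrays of 1 line and 1 replicate number (isoginkgetin, DMSO, untreated) form a set, so that 4 sets were available. The only p53-null cells were those of this subline, so that differences between the lines cannot be told apart from other differences of the subline.

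Most human genes are interrupted by introns, which the spliceosome removes before the mRNA leaves the nucleus. Intronless genes skip this step, and the replication-dependent histone genes make mRNAs that end in a stem-loop in place of a poly(A) tail and that accumulate in S phase. Many other intronless genes arose when an mRNA was copied back into the genome, and small RNAs of the Cajal body are mostly cut out of the introns of host genes. The comparison asks how transcripts from such genes moved under a compound described as blocking splicing.

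The absence of a junction probe set did not select the best-known intronless genes. None of 18 such symbols was among the 31 genes, and 8 of them, including JUN, IER2, SOX4 and RHOB, carried a junction probe set on this array. CEBPA, CEBPB and IRS4 had no junction probe set but mean levels of 5.67, 5.12 and 2.65. No exon annotation was used here, so that the single-exon structure of the 31 genes was not tested. By RefSeq, 24 of the 31 genes are protein-coding, 4 are small non-coding RNAs and 3 are pseudogenes, and 11 overlap another gene. The largest family is the histones, with 8 genes. Of the 374 genes before the level filter, 117 were olfactory receptors, of which 1, OR51B2, passed.

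The promoters of the genes whose responses are described in most detail are shown here, from 250 bases before to 50 bases after the annotated start, in RefSeq sequence on GRCh38.p14 and in the direction of transcription. Capitals mark 4 core promoter or factor motifs found on either strand, where copies may overlap. The motif of the cyclic AMP response element is TGACGTCA. The motif bound by TBP is searched as TATAAA, that bound by NF-Y as CCAAT and that bound by SP1 as GGGCGG. CHMP1B is at chr18:11851163-11851462 (+ strand), FANCF at chr11:22625774-22626073 (− strand), PCBP1 at chr2:70087227-70087526 (+ strand), HIST1H1E (now H1-4) at chr6:26156079-26156378 (+ strand), HIST2H2AB (now H2AC21) at chr1:149887916-149888215 (− strand) and HIST2H2AC (now H2AC20) at chr1:149886668-149886967 (+ strand).
CHMP1B: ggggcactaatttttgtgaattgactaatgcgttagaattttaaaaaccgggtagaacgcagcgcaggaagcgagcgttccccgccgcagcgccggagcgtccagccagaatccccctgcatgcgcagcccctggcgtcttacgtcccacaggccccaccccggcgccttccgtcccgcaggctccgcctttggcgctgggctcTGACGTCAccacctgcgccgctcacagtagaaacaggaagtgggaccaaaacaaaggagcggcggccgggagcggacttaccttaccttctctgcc
FANCF: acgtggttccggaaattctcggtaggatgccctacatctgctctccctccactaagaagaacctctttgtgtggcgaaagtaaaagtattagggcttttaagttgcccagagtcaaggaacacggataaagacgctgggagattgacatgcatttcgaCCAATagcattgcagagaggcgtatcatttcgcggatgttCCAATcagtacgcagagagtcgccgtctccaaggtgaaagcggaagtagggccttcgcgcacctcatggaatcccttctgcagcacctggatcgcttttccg
PCBP1: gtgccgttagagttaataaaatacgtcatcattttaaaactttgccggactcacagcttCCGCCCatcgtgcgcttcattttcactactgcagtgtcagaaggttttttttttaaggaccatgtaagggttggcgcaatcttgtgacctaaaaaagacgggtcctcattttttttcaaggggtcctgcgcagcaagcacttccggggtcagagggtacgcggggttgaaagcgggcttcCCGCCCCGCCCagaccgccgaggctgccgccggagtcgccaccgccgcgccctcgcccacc
HIST1H1E: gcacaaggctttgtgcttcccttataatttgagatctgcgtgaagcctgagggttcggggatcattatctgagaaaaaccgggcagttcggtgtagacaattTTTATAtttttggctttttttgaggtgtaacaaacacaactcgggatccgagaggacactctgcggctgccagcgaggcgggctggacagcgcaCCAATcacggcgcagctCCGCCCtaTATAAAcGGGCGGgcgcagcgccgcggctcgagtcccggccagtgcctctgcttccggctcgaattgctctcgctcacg
HIST2H2AB: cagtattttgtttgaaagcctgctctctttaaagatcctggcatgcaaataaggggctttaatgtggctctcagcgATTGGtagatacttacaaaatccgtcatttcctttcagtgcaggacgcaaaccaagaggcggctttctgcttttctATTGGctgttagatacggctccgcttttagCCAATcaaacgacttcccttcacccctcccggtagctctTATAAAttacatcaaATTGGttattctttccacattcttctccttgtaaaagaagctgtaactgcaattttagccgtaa
HIST2H2AC: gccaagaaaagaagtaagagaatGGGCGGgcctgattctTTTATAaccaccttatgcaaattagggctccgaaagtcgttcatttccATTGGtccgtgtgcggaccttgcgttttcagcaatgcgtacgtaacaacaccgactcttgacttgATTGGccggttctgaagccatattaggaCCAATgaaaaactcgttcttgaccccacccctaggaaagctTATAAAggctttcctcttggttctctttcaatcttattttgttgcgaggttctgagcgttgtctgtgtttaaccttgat

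Promoters were found for 19 of the 31 genes, among them 7 of the 8 histones. CCAAT occurred in 7 of 7 histone promoters and in 4 of the 12 others, against 34.6% of 35116 RefSeq promoters of the same length. TATAAA occurred in 5 of 7 histone promoters and in 0 of the 12 others, against 11.5% of all. GGGCGG occurred in 2 of 7 histone promoters and in 6 of the 12 others, against 45.0% of all. CHMP1B holds 1 copy of TGACGTCA, an element found in 1.85% of all promoters and in 2 of the 7 histone promoters. HIST2H2AB and its neighbour HIST2H2AC both hold TATAAA and CCAAT, with 4 copies of CCAAT in HIST2H2AB and 3 in HIST2H2AC. A match to these letters is a description and not a binding site.

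The arrays labelled HCT116 replicate 1 stood apart from the other 9. The 7 epithelial markers (EPCAM, KRT8, KRT18, KRT19, CDH1, CLDN4, CLDN7) had mean levels of 3.81 to 5.78 in that set and of 9.61 to 14.43 in the other 3. The 5 mesenchymal markers (VIM, FBN1, THY1, COL1A1, COL1A2) had levels of 4.67 to 12.56 there and of 3.10 to 4.14 elsewhere. Values of that set are therefore given beside the others. The tests over 3 sets leave it out, whereas tests of the HCT116 sets together, of all 4 sets and of the p53-null sets with all 4 sets in the fit include it. In every set, 29.8% to 36.5% of the 573909 exon probe sets held exactly the same value on the isoginkgetin and the DMSO array, whereas at most 0.00314% did so between the DMSO arrays of 2 sets. Among the 107 exon probe sets of the 31 genes, 17 to 24 were exactly equal in a set. The cause of these equal values was not tested.

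The levels of the 31 genes differed between the 2 sets labelled HCT116. The mean level of a gene in HCT116 replicate 1 minus that in HCT116 replicate 2 had a median of 0.74 log2 and a range of −4.52 to 2.95. Of the 31 genes, 8 were over 1 log2 higher in HCT116 replicate 1, and 2 were over 1 log2 lower. Other genes were higher there too, with a median level of 9.04 in HCT116 replicate 1, against 8.66 in HCT116 replicate 2, and the array medians over all exon probe sets were 5.03 to 5.08, against 4.18 to 4.22. The upward shift is thus not particular to the 31 genes. OR51B2, an olfactory receptor gene next to the beta-globin genes, had a mean level of 3.45 in HCT116 replicate 1, against 7.96 in HCT116 replicate 2. MAGEH1, of the MAGE family, had 9.48 against 6.53, and SCARNA17, a small Cajal body RNA, had 12.07 against 9.53. The mean of the p53-null sets minus HCT116 replicate 2 had a median of −0.01 log2, and only MIR4485 differed by over 1 log2, at 1.37. The plot of the 2 sets labelled HCT116 shows this spread for each gene.

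**Figure D1:**
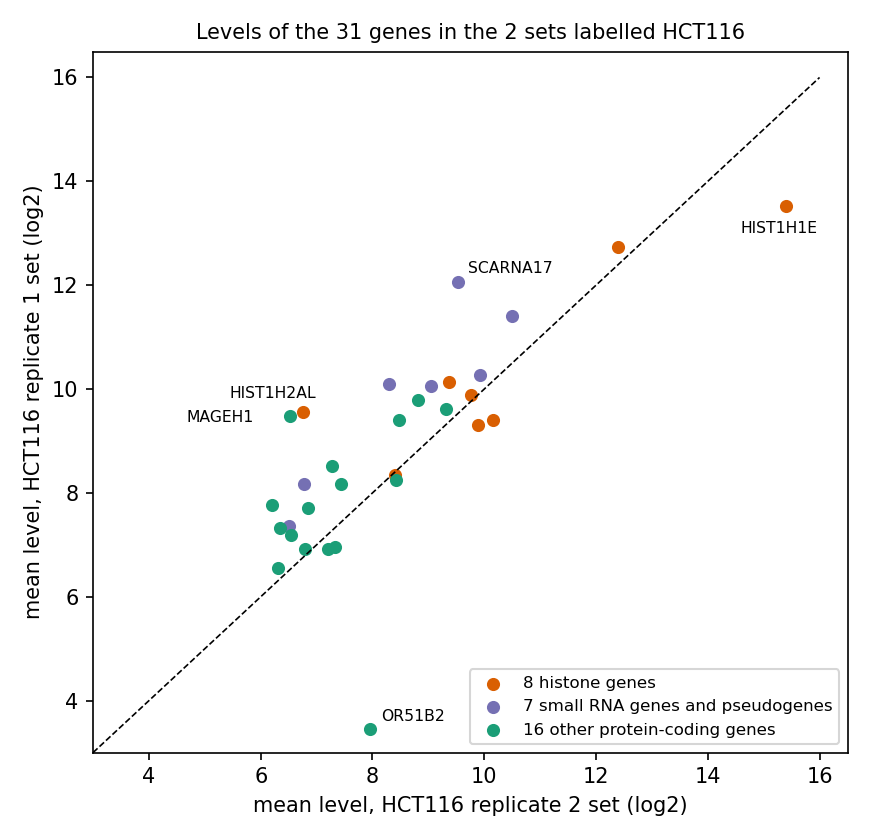
Mean level (log2) over the 3 arrays of the HCT116 replicate 1 set (vertical) against that of the HCT116 replicate 2 set (horizontal) for the 31 genes, with the dashed line at equal levels. OR51B2 lies 4.52 log2 below the line, and MAGEH1 2.95 log2 above it.

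The exon probe sets of a gene also lay far apart. In 30 of the 31 genes their mean levels differed by over 1 log2 and in 23 by over 5 log2, with a median range of 8.40. A gene mean thus combines bright and dim probe sets, and near-identical copies can bind the same probes in the histones, PABPC3, PPIAL4G and the pseudogenes. The probe set IDs of MIR4485 name chromosome 6, whereas RefSeq places the gene on chromosome 11, and 2 of the 3 IDs of MIR548U name chromosome 1, against chromosome 6 in RefSeq. For the other 29 genes all IDs named the RefSeq chromosome. Values listed for MIR4485 and MIR548U are therefore not read as those of a mature miRNA, and no miRNA sequence is shown.

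The median response of the 31 genes lay further from that of other genes in the sets labelled HCT116 than in the p53-null sets. In HCT116 replicate 2 the median of isoginkgetin minus DMSO was 0.12 log2 over the 31 genes, against −0.06 over 7447 genes with junction probe sets that passed the same level filter. In HCT116 replicate 1 the medians were 0.12 and −0.05. In p53-null replicate 1 they were −0.03 and −0.004, and in p53-null replicate 2 they were 0.04 and −0.002. The interquartile range of the 31 genes, 0.16 to 0.33 log2, exceeded these medians in every set. The deposited gene-level table, which holds 20 of the 31 genes, did not show this rise of the median. Its medians in HCT116 replicates 2 and 1 were 0.00 and 0.001 log2. In each of these sets 10 of the 20 genes had exactly the same value with isoginkgetin and DMSO. In replicate 2, 8 were higher and 2 lower, and in replicate 1, 10 were higher and 0 lower.

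In the probe-set table, the share of genes that were higher with isoginkgetin shows the same contrast between the HCT116 and the p53-null sets. It was 71.0% and 77.4% of the 31 genes in HCT116 replicates 2 and 1, against 35.8% and 36.0% of the other genes and 54.1% and 52.9% of all 18614 genes, most of which did not pass the level filter. In p53-null replicates 1 and 2 it was 45.2% and 58.1%, against 48.7% and 49.1%. In both HCT116 sets 19 of the 31 genes (61.3%) were higher, whereas 18.2% of the other genes, 27.2% of 232 other genes with 3 to 5 exon probe sets and 35.4% of all 18614 genes were so. The 31 genes had 3 to 5 exon probe sets each, whereas the other genes had a median of 20. Over those 232 genes, the medians in HCT116 replicates 2 and 1 were −0.01 and −0.03. Compared with untreated cells, 64.5% of the 31 genes were higher in each p53-null set, where 38.0% and 43.6% of the other genes were so. In HCT116 replicates 2 and 1 the shares compared with untreated cells were 67.7% and 80.6%, where the other genes had 33.6% and 34.0%. The position of the 31 genes in the p53-null sets thus depended on the control.

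The direction in the HCT116 sets was the same at each range of level. Between 6 and 8 log2 the medians of HCT116 replicate 2 were 0.10 for 15 of the 31 genes and −0.06 for other genes. Between 8 and 10 log2 they were 0.10 for 9 genes and −0.07 for other genes, and over 10 log2 they were 0.29 for 7 genes and −0.06 for other genes. As these medians describe a list chosen by its level, no test was made of them. Fewer cells and less RNA per cell cannot be told apart on these arrays.

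**Figure D2:**
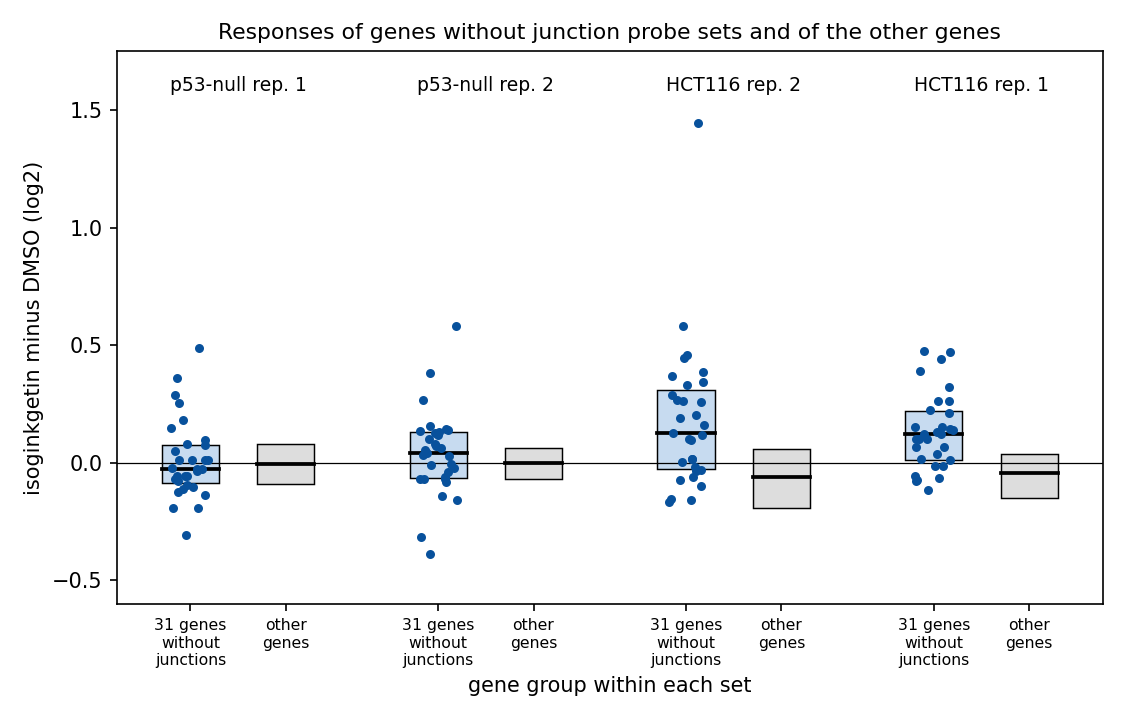
Isoginkgetin minus DMSO (log2) in each of the 4 sets, for the 31 genes without junction probe sets (blue points, left) and the 7447 other genes over the level filter (right). Boxes span the quartiles and thick lines mark the medians; the medians of the 31 genes are 0.12 in both HCT116 sets, against −0.06 and −0.05 for the other genes.

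The 2 controls also differed in single genes. The median of DMSO minus untreated over the 31 genes was 0.05, 0.002, −0.01 and 0.02 log2 in p53-null replicates 1 and 2 and HCT116 replicates 2 and 1, and single genes ranged from −0.39 to 0.32. Over the other genes the medians were −0.03, −0.01, −0.003 and −0.01 in the same order. The shares higher with DMSO were 61.3%, 51.6%, 45.2% and 58.1% of the 31 genes, against 36.2%, 42.6%, 48.2% and 39.4% of the other genes. The 31 genes thus lay above the other genes without isoginkgetin in every set but HCT116 replicate 2. In HCT116 replicate 2 the interquartile range of DMSO minus untreated over the 31 genes was 0.25, against 0.33 for isoginkgetin minus DMSO. With limma on the 3 sets other than HCT116 replicate 1, with the set as a block, 0 of the 31 genes passed an adjusted p of 0.05 for DMSO minus untreated, where 0% of all genes tested were called and 3 of the 31 had an unadjusted p under 0.05.

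CHMP1B was the only gene of the 31 called over the 3 sets. It encodes a subunit of ESCRT-III, the machinery that bends and cuts membranes. Its level was 8.03, 8.74 and 8.73 with isoginkgetin in p53-null replicate 1, p53-null replicate 2 and HCT116 replicate 2, against 7.55, 8.16 and 8.15 with DMSO and 7.38, 8.24 and 8.37 untreated. Isoginkgetin was the highest of the 3 arrays in each of these sets, although the values of the 2 treatments overlapped between sets. CHMP1B rose by 0.55 ± 0.05 log2 (SD, n = 3 sets, 1.46-fold, limma adjusted p = 0.0134). Of all 18614 genes, 2.53% were called in this comparison, 1.1% as higher and 1.43% as lower, so that 1 of 31 is close to that share. Of the 31 genes, 7 had an unadjusted p under 0.05, where the share over all genes was not computed. The call was lost without p53-null replicate 1 or without p53-null replicate 2, and also without the set as a block, with the median of its probe sets and in the gene-level table, while the difference stayed between 0.42 and 0.58 log2 under all 11 alternatives run for the gene.

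The rise of CHMP1B was seen on each of its 4 exon probe sets, with means over the 3 sets of 0.45 to 0.73 log2. By set the probe sets differed, and the dimmest of them was lower by 0.42 log2 in p53-null replicate 1 and higher by 1.55 in p53-null replicate 2. In HCT116 replicate 1 the gene was higher by 0.23 log2, and over all 4 sets the mean was 0.47 (limma adjusted p = 0.0257, where 3.07% of all genes were called, 1.11% as higher and 1.96% as lower). In the gene-level table it was higher by 0.52, 0.34, 0.41 and 0.05 log2 in p53-null replicates 1 and 2 and HCT116 replicates 2 and 1. No single exon probe set among 573909 was called by limma (0%), and 1 of the 4 of CHMP1B had an unadjusted p under 0.01. CHMP1B overlaps GNAL on the same strand in RefSeq, and transcripts of the 2 genes were not separated here.

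The next 4 genes by mean, all higher in all 3 sets, were not called. FANCF, of the Fanconi anaemia core complex that repairs DNA crosslinks, differed by 0.18, 0.14 and 0.33 log2 in p53-null replicates 1 and 2 and HCT116 replicate 2 (limma adjusted p = 0.128). WDR5B, a retrocopied relative of the chromatin protein WDR5, differed by 0.05, 0.13 and 0.44 (limma adjusted p = 0.28). VN1R10P, a pseudogene of a vomeronasal receptor, differed by 0.01, 0.27 and 0.34 (limma adjusted p = 0.145). PIGM, a mannosyltransferase of glycosylphosphatidylinositol anchor synthesis, differed by 0.25, 0.13 and 0.10 (limma adjusted p = 0.244). WDR5B and MAGEH1 were the 2 of 31 genes whose isoginkgetin levels in the 3 sets all exceeded their DMSO levels, where 2.07% of all genes had levels that did not overlap. The probe sets of MAGEH1 did not move together, as given below.

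Of the 31 genes, 4 were lower in all 3 sets, and none of these was called. OR51B2 differed by −0.10, −0.39 and −0.04 log2 in p53-null replicates 1 and 2 and HCT116 replicate 2, with a mean of −0.17 (limma adjusted p = 0.317). TIGD1, a gene derived from a DNA transposon, differed by −0.19, −0.14 and −0.16 (limma adjusted p = 0.42). HIST1H2AJ, a histone H2A gene, differed by −0.31, −0.04 and −0.10 (limma adjusted p = 0.22). Its probe set at a level of 4.88 differed by −0.85, −0.22 and −0.29, whereas that at 17.42 differed by −0.015, 0.00 and 0.00. UTP3, a protein of the small-subunit processome that matures the ribosome, differed by −0.13, −0.08 and −0.15 (limma adjusted p = 0.501). In HCT116 replicate 2 the brightest probe set of UTP3 differed by −1.16, and its others by 0.32 and 0.37.

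The next comparison takes the 2 sets labelled HCT116 together, and its values rest in part on the set that lacks epithelial markers. Of the 31 genes, 3 were called as higher and 0 as lower, where 3.75% of all genes were called, 0.693% as higher and 3.06% as lower. Of the other genes over the level filter 7.4% were called, 0.792% as higher and 6.61% as lower, against 9.68% of the 31. The 3 genes were HIST1H1E, FANCF and PCBP1. Of the 31, 14 had an unadjusted p under 0.05, a count whose share over all genes was not computed. All 3 calls were lost without p53-null replicate 1 or without p53-null replicate 2, which the fit uses for the spread, and HIST1H1E also lost its call without HCT116 replicate 2. They were also lost without the set as a block and with the median of the probe sets, which gave 0.44 log2 for HIST1H1E, 0.13 for FANCF and 0.58 for PCBP1, and in the gene-level table, which holds no histone among the 31, FANCF was at 0.19 and PCBP1 at 0.09 without a call.

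HIST1H1E encodes the linker histone H1.4, which binds DNA between nucleosomes. Its level was 15.70 and 13.78 with isoginkgetin in HCT116 replicates 2 and 1, against 15.31 and 13.51 with DMSO and 15.21 and 13.29 untreated. In both sets isoginkgetin was the highest array and untreated the lowest, while the level itself differed more between the sets than with treatment. The mean difference from DMSO was 0.32 ± 0.09 log2 (SD, n = 2 sets, limma adjusted p = 0.0266). All 4 of its exon probe sets were higher in both sets.

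FANCF had 6.40 and 8.00 with isoginkgetin in HCT116 replicates 2 and 1, against 6.07 and 7.73 with DMSO and 6.11 and 7.59 untreated. Isoginkgetin was again the highest array of each set, with a mean difference of 0.30 ± 0.05 log2 (SD, n = 2 sets, limma adjusted p = 0.0295). In the p53-null sets FANCF had 6.76 and 6.26 with isoginkgetin, against 6.58 and 6.11 with DMSO and 6.74 and 6.30 untreated. There isoginkgetin exceeded DMSO in both sets and stayed within 0.05 of the untreated level. Without the probe sets below a mean of 5, the rise in HCT116 was 0.26 log2 and lost its call (limma adjusted p = 0.0919).

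PCBP1, an intronless member of the poly(C)-binding proteins that bind RNA, had 9.44 and 9.82 with isoginkgetin in HCT116 replicates 2 and 1, against 9.18 and 9.43 with DMSO and 9.33 and 9.59 untreated. DMSO was the lowest array in both sets, so that isoginkgetin exceeded DMSO by 0.26 and 0.39 log2 but untreated cells by 0.11 and 0.22. The mean difference from DMSO was 0.33 ± 0.09 log2 (SD, n = 2 sets, limma adjusted p = 0.0194), and against untreated cells it was 0.17 (limma adjusted p = 0.073). In p53-null replicates 1 and 2 it differed from DMSO by −0.06 and −0.07.

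**Figure D3:**
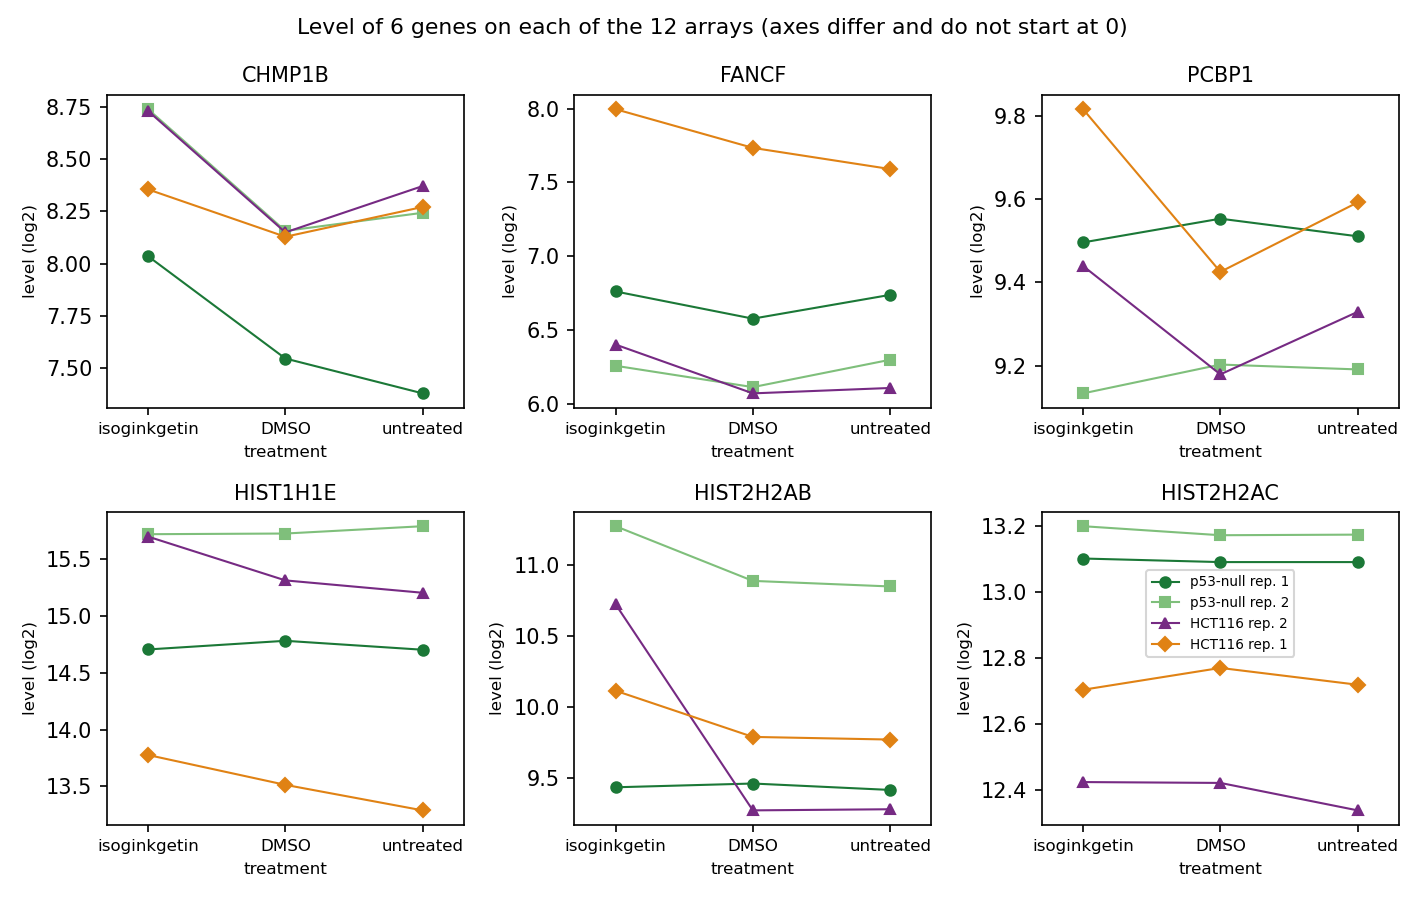
Level (log2, mean over exon probe sets) of CHMP1B, FANCF, PCBP1, HIST1H1E, HIST2H2AB and HIST2H2AC on each of the 12 arrays, by treatment, with 1 line for each set and a different vertical axis in each panel. CHMP1B is highest with isoginkgetin in every set, and HIST2H2AB is 1.44 log2 higher with isoginkgetin than with DMSO in HCT116 replicate 2.

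In HCT116 replicate 2 alone, 8 of the 31 genes (25.8%) were over 0.3 log2 higher with isoginkgetin than with DMSO. Of the 31, 0 were over 0.3 log2 lower. Of the other genes, 5.67% and 14.0% were so, and of all genes 3.76% and 6.8%. Other genes with 3 to 5 exon probe sets were at 15.1% and 14.7%. A fit with this set alone for its line takes its spread from the p53-null sets, since a single set has none of its own. The genes below were named after their values were seen. CHMP1B was higher by 0.58 log2 and WDR5B by 0.44. The histones HIST2H2AB, HIST1H1C and HIST1H2AL were higher by 1.44, 0.46 and 0.37. The 8 genes also include HIST1H1E, FANCF and VN1R10P.

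HIST2H2AB, a histone H2A gene, showed the largest difference of the 31 genes in that set. Its level was 10.72 with isoginkgetin in HCT116 replicate 2, against 9.28 with DMSO and 9.28 untreated, and all 3 exon probe sets were higher, by 2.28, 1.04 and 1.01 log2. In HCT116 replicate 1 it was 10.12 with isoginkgetin, against 9.79 with DMSO and 9.77 untreated. In p53-null replicates 1 and 2 it was 9.44 and 11.27 with isoginkgetin, against 9.46 and 10.89 with DMSO. Over the 3 sets the mean of 0.60 ± 0.76 log2 (SD, n = 3 sets) was not called (limma adjusted p = 0.306).

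HIST2H2AC, the neighbouring H2A gene, moved by 0.01, 0.03 and 0.003 log2 in p53-null replicates 1 and 2 and HCT116 replicate 2 and by −0.07 in HCT116 replicate 1. Across the 8 histones the median response was 0.33 log2 in HCT116 replicate 2, with 7 of 8 genes higher, against −0.06 and −0.02 in p53-null replicates 1 and 2 with 2 and 3 of 8 higher. In HCT116 replicate 1 the median was 0.04, with 4 of 8 higher. The replication-dependent histone list held 22 measured genes, 8 of them among the 31, and limma called 1 of the 22 as higher in the HCT116 sets, where 0.693% of all genes were so. In HCT116 replicate 2 the 22 genes had a smaller median than the 8, at 0.10 log2, with 7 called as higher and 1 as lower, where 4.85% and 9.04% of all genes were called. All genes tested had a median of 0.01 log2 in HCT116 replicate 2.

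The 7 small RNA genes and pseudogenes (SCARNA17, SCARNA9L, MIR4485, MIR548U, RN5-8S2, SNRPEP2, VN1R10P) were all higher with isoginkgetin than with DMSO in both HCT116 sets. The median was 0.19 log2 in HCT116 replicate 2 and 0.14 in HCT116 replicate 1, and −0.02 and 0.06 in p53-null replicates 1 and 2. In HCT116 replicate 2 all 7 were also lower with DMSO than untreated (median −0.17), and isoginkgetin minus untreated had a median of 0.00 with 3 genes higher, 3 lower and 1 equal. In HCT116 replicate 1 isoginkgetin minus untreated had a median of 0.22, with 6 of 7 higher. SCARNA17, which belongs to the Cajal body RNAs that guide the modification of spliceosomal RNAs, had 9.59 with isoginkgetin in HCT116 replicate 2, against 9.33 with DMSO and 9.65 untreated.

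The 16 protein-coding genes other than histones had a median of −0.001 log2 in HCT116 replicate 2 with 8 higher and 8 lower, and of 0.12 in HCT116 replicate 1 with 13 higher. In p53-null replicates 1 and 2 their medians were 0.03 and 0.06. CSTF2T, a paralogue of a subunit of the mRNA cleavage stimulation factor, differed by 0.15, 0.13 and −0.17 log2 in p53-null replicates 1 and 2 and HCT116 replicate 2 and by 0.47 in HCT116 replicate 1. RNF26, a ubiquitin ligase of the endoplasmic reticulum, differed by −0.19, 0.12, −0.03 and −0.01 in the same order. RAP2B, a small GTPase, stayed within 0.08 log2 of DMSO in all 4 sets.

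**Figure D4:**
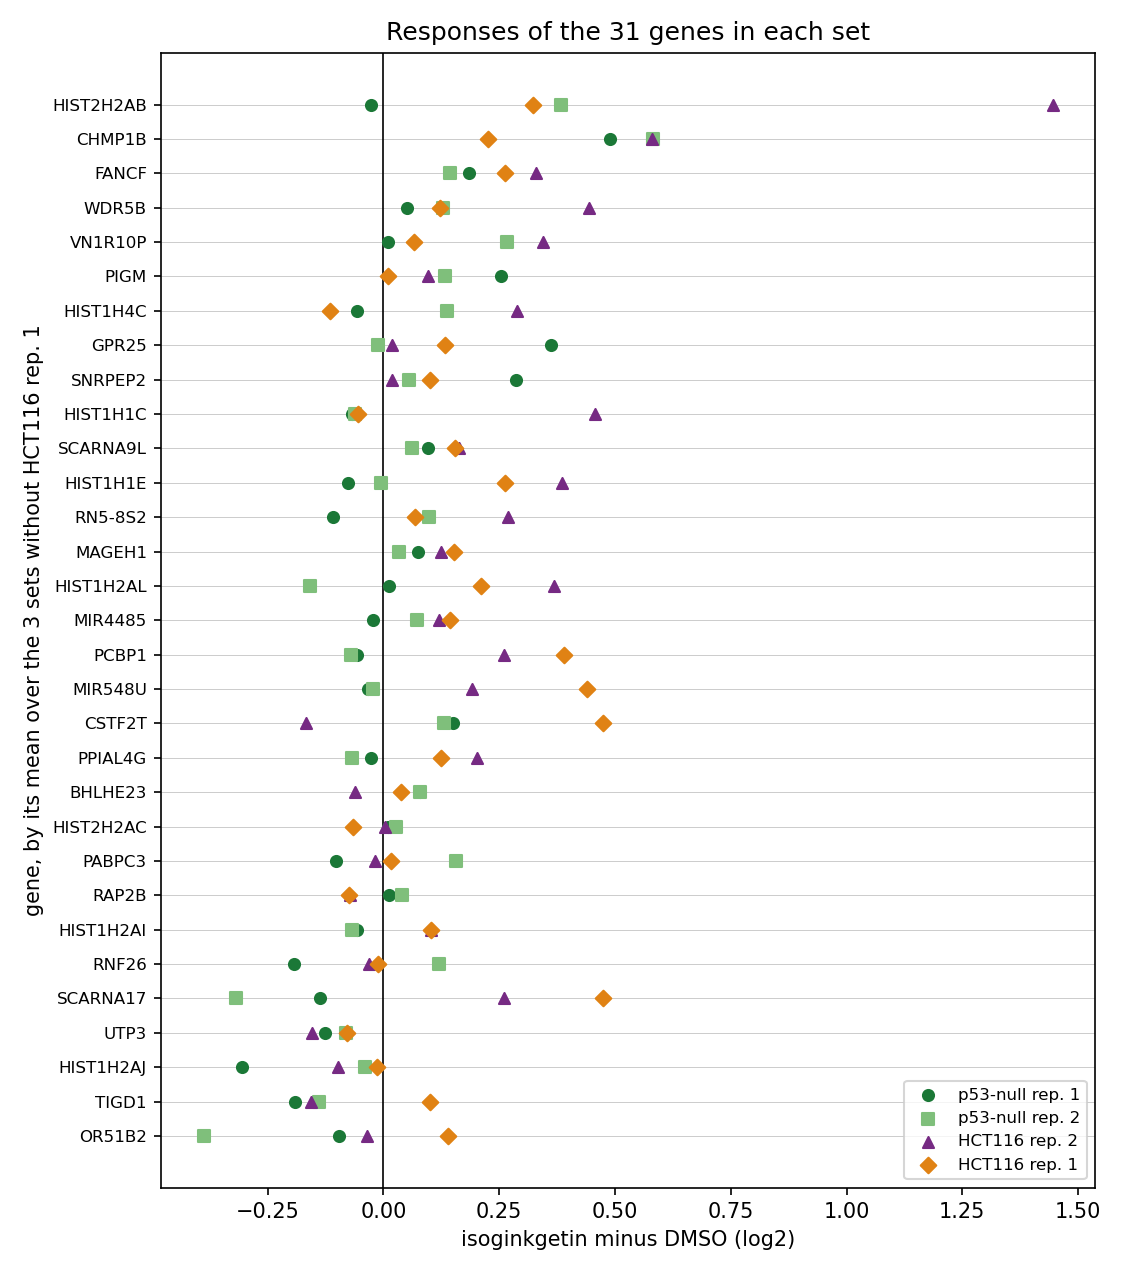
Isoginkgetin minus DMSO (log2) for each of the 31 genes (vertical, ordered by the mean over the 3 sets without HCT116 replicate 1) in each of the 4 sets (symbols). CHMP1B is 0.49 to 0.58 log2 higher in the 3 sets, and HIST2H2AB reaches 1.44 in HCT116 replicate 2.

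In the p53-null subline, 0 of the 31 genes were called by limma with all 4 sets in the fit, where 0.403% of all genes were called, 0.22% as higher and 0.183% as lower, and 5 had an unadjusted p under 0.05. CHMP1B had a mean difference of 0.54 ± 0.07 log2 (SD, n = 2 sets, limma adjusted p = 0.0748), and it was called at the same difference in the fit without HCT116 replicate 1 (limma adjusted p = 0.0211), in which 2.4% of all genes were called, 1.25% as higher and 1.16% as lower. Of the 31 genes, 12 were higher in both p53-null sets (38.7%) and 11 were lower in both (35.5%), against 34.2% and 36.5% of the other genes.

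The difference of the responses, p53-null minus HCT116, called 0 of the 31 genes and 0% of all genes by limma with all 4 sets, and 7 of the 31 had an unadjusted p under 0.05. Without HCT116 replicate 1 it called 4 of the 31 as lower and 0 as higher, where 5.96% of all genes were called, 3.95% as higher and 2% as lower, and 12% of the other genes over the level filter against 12.9% of the 31, and this rests on HCT116 replicate 2 as the only set of its line. A group of 6 genes (HIST1H1E, HIST1H2AI, MIR548U, PCBP1, PPIAL4G, SCARNA17) were higher in both HCT116 sets and lower in both p53-null sets, which is 19.4% of the 31, against 3.89% of the other genes, 6.03% of those with 3 to 5 exon probe sets and 6.6% of all genes. Compared with untreated cells, HIST1H2AI and PCBP1 kept these signs, whereas HIST1H1E, MIR548U, PPIAL4G and SCARNA17 did not. Some falls from DMSO in the p53-null sets were small, such as −0.006 log2 for HIST1H1E in p53-null replicate 2.

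Against untreated cells in place of DMSO, 2 of the 31 genes were called as higher over the 3 sets, where 2.01% of all genes were called, 0.715% as higher and 1.29% as lower. These were CHMP1B at 0.50 log2 (limma adjusted p = 0.0183) and MAGEH1 at 0.18 (limma adjusted p = 0.0384). MAGEH1 had 6.58, 6.56 and 6.64 with isoginkgetin in p53-null replicates 1 and 2 and HCT116 replicate 2, against 6.51, 6.53 and 6.52 with DMSO and 6.39, 6.42 and 6.43 untreated. The DMSO level lay between the other 2 in each of these sets. The exon probe sets of MAGEH1 had mean levels of 13.08, 3.48 and 2.97, so that its level over 6 rests on the brightest. In p53-null replicate 1 and HCT116 replicate 2 the brightest differed from DMSO by −0.33 and 0.76 log2, and the dimmest by 0.55 and −0.42. In the gene-level table MAGEH1 equalled DMSO in both p53-null sets and was 0.07 higher in HCT116 replicate 2. In the HCT116 sets 4 of the 31 genes were called as higher, HIST1H1E, HIST1H2AL, FANCF and MAGEH1, where 4.97% of all genes were called, 0.978% as higher and 3.99% as lower. In the p53-null sets limma called 0 of the 31, where 0.0322% of all genes were called, 0.0107% as higher and 0.0215% as lower, and 3 of the 31 had an unadjusted p under 0.05.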

How the data were processed

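The log2 values were deposited by the authors for 12 arrays, as a probe-set table and a gene-level table. Per the design text they were made in Transcriptome Analysis Console 4.0 with default settings; the background correction is not given in the sources used here. Per the labels' protocols, total RNA was hybridised to the array. For each gene the mean of its exon probe sets was taken (18614 genes, 365561 exon probe sets).

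Differences were tested with limma 3.58.1 in R 4.3.3, moderated over all 18614 genes with Benjamini-Hochberg adjustment and a threshold of 0.05, with the set as a block; tables and plots used Python 3.11.15, pandas 2.3.3 and matplotlib 3.10.9. The test was checked on simulated data with independent noise. These held none of the exactly equal values described above, so that the check does not cover their effect on the p-values. After group means were removed, arrays of the same line and replicate number correlated at 0.902 to 0.997 (6 pairs), whereas arrays that shared only the number correlated at 0.0686 to 0.108 (9 pairs, across lines), so numbers were taken to pair arrays within a line only. Arrays have no read depth, and their number limits the precision. Per the design text the 2 experiments of a line are independent. With the set as a block, p-values measure how far treatment differences within a set vary between sets, untreated arrays included. The fits per line pool this spread over both lines.

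In each isoginkgetin comparison the called genes among the 31 are named, with the largest uncalled differences of shared sign over the 3 sets and the genes next to the threshold. The 31 genes and the lists were chosen with earlier results of these data known. Counts of genes with an unadjusted p under 0.05 were made for the 31 genes only. Without a share over all genes they are not read as an excess. Current symbols were found in RefSeq for all 31. The level of the deleted gene is not reported here. Alternatives covered scaling, probe-set summaries, level filters, the control, the block and each set left out.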

Additional observations from a re-analysis of the deposited data

Results flagged for a closer look

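In the fit without HCT116 replicate 1, the test of the difference of the responses (limma, adjusted p under 0.05) called 4 of the 31 genes, with a smaller response in the p53-null sets than in HCT116 replicate 2. The fit called 5.96% of all genes and 12% of the other genes over the level filter, so that the share of the 31, 12.9%, is close to that of other expressed genes. The difference was −1.27 log2 for HIST2H2AB, −0.52 for HIST1H1C, −0.43 for HIST1H1E and −0.32 for PCBP1. Both p53-null sets lay below HCT116 replicate 2 for all 4 genes. The line is represented by 1 set in this fit, whose spread was assumed to equal that of the p53-null sets, and with all 4 sets none of the 4 was called. HIST1H1C was −0.06 in HCT116 replicate 1, against 0.46 in HCT116 replicate 2.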

How the results depend on the processing

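Without the replicate block, which pairs the arrays of a set, limma called 0 of the 31 genes over the 3 sets, against 1 with it, and 0 in the HCT116 sets, against 3 with it. The methods' unpaired one-way test, the median of the probe sets and the gene-level table also gave 0 in both comparisons. For the median of the probe sets, the list was chosen anew by the level filter. The gene-level table holds only 20 of the 31 genes and no histone among them. A minimum of 5 or more probe sets gave 0 by construction, since it removes every gene called in these comparisons. Untreated cells in place of DMSO gave 2 over the 3 sets. Probe sets with a mean level over 5 gave 5 in the HCT116 sets, although FANCF lost its call there. The level filter was applied anew to those means, so that the 5 were counted in a newly chosen list. Leaving out 1 set at a time gave 0 to 1 calls over the 3 sets, 0 to 1 in the p53-null sets, 0 to 8 in the HCT116 sets and 0 to 4 for the difference of the responses; the upper counts of 8 and 4 came without HCT116 replicate 1. In that fit HCT116 replicate 2 is the only set of its line, and the spread comes from the p53-null sets. For both counts, the share of the 31 called in either direction was close to that of other genes over the level filter. The 8 were all higher, whereas most calls among those other genes were lower. With 1 set of the line, the counts of 8 and 4 are not read as an excess. From the response of each of the 31 genes, the median response of other genes in its range of level was subtracted. The median of these differences averaged 0.07 ± 0.11 log2 (SD, n = 3 sets), and the average was 0.01 without HCT116 replicate 2. This average moved by less than that SD under every alternative run. The SD exceeds the average, so that a fall to 0 would also count as unmoved. Taken per set, the median moved by at least that SD in 1 alternative for HCT116 replicate 2. It did so in 1 for HCT116 replicate 1 and in 2 for p53-null replicate 1. The average was 0.04 against genes with 3 to 5 probe sets, 0.09 without histones and 0.06 over protein-coding genes. These 3 alternatives were chosen after seeing the data. No call changed sign. The number of arrays, 2 a group, limits the precision, and the cause of the other lost calls was not tested.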
